A study of Mus musculus with 12 samples.

Results

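The iron handling genes described here are 9 members: the transferrin receptor Tfrc and its ligand transferrin, Trf; the ferritin heavy and light chains Fth1 and Ftl1; the copper ferroxidases ceruloplasmin, Cp, and hephaestin, Heph; the iron regulatory proteins Aco1 (IRP1) and Ireb2 (IRP2); and hepcidin, Hamp. They were chosen by their known roles, with earlier results of these data known, and the solute carriers were left out of the member list. By symbol they were matched to 9 of the 54119 genes counted in cerebral vessels of the mouse. All 9 passed the filter on low counts that left 19150 genes. Hamp passed it through its level at LPS 4 h, so that its presence among the tested genes is not independent of a difference.

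The vessels came from the forebrains of wild type C57BL6 mice of 2 to 3 months. The mice received lipopolysaccharide (LPS, from E. coli) intraperitoneally at 10 mg/kg and were killed 15 min (LPS 15 min), 30 min, or 4 h afterwards, or received PBS. Each of the 4 groups had 3 libraries, and each library pooled the vessels of 1 male and 1 female mouse. All mice were perfused with PBS, the meninges were taken off, and the vessels were separated from the rest of the tissue by dextran centrifugation and a mesh, which keeps every cell type that stays attached to a vessel. Full-length cDNA was amplified and sequenced without marking the strand, to 18.3 to 25.9 M assigned fragments per library.

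Iron reaches the brain through the cells of its vessels. Transferrin carries iron in blood and binds the transferrin receptor, which is taken up into endosomes. There iron is reduced and moved into the cytosol. It is then used, stored in ferritin, or passed out through ferroportin, the product of Slc40a1, with a ferroxidase oxidizing it on the far side. Hepcidin, a peptide hormone made mainly by the liver and induced by interleukin 6, binds ferroportin and has it degraded. Within a cell, both IRPs bind hairpins called iron responsive elements (IREs). Binding blocks translation from a 5′ untranslated region (UTR) and protects the mRNA from decay where the hairpins are in the 3′ UTR. RNA levels can show the second effect and not the first.

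The annotated UTRs of the members and of the related genes Slc40a1 and Slc11a2 were searched for the IRE. The pattern was the loop CAGTGN, a stem of 5 paired bases on each side (G-T pairs allowed), and an unpaired C just 5′ of the stem. Only the transcript strand was read. The matches are shown because they divide the members into those under known translational control and those under known control of mRNA stability. Positions are on GRCm38, sequences are from the GENCODE M21 transcripts, and capitals mark the loop.
Fth1, 5′ UTR, chr19:9982732-9982760, plus strand: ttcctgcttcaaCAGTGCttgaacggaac
Ftl1, 5′ UTR, chr7:45459779-45459807, minus strand: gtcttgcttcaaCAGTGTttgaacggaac
Slc40a1, 5′ UTR, chr1:45925465-45925493, minus strand: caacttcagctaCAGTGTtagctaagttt
Tfrc, 3′ UTR, chr16:32631219-32631247, plus strand: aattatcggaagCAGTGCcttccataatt
Tfrc, 3′ UTR, chr16:32631598-32631626, plus strand: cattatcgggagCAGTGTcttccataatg
Tfrc, 3′ UTR, chr16:32631663-32631691, plus strand: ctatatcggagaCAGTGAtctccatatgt
Tfrc, 3′ UTR, chr16:32631710-32631738, plus strand: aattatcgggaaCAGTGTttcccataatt
The 2 ferritin genes each had 1 match in the 5′ UTR and Tfrc had 4 in the 3′ UTR. The same search found a match in the 5′ UTR of 31 of 20597 genes (0.151%) and in the 3′ UTR of 129 of 20979 genes (0.615%). The letters searched were not found in the UTRs of Trf, Cp, Heph, Aco1, Ireb2, or Hamp, nor in those of Slc11a2. A hairpin of another form, or outside the annotated UTRs, would be missed by this search.

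Values below are CPM, the fragments of a gene relative to the size of the library with the TMM factors of edgeR. Where named, they are TPM, which are divided by transcript length, scaled to the same total in every library, and carry no TMM factor. A call is a change beyond 1.5-fold in the quasi-likelihood threshold test of edgeR, with p adjusted by Benjamini-Hochberg across the 19150 genes and required to be below 0.05. At LPS 15 min none of the 9 members was called, at an unadjusted p below 0.05 likewise 0, while 4.18% of all genes were called. The same test with no fold threshold called 7 of 9, against 38.6% of all genes. At LPS 30 min 1 member, Hamp, was called against 4.58% of all genes, and 6 with no fold threshold against 36.9%. At LPS 4 h 5 of 9 were called. Cp, Fth1, Trf, and Hamp were higher, and Tfrc was lower, whereas 32.8% of all genes were called, 19% higher and 13.8% lower. With no fold threshold all 9 members passed at LPS 4 h, as did 68.5% of all genes. The median log2 change of the members was -0.02, -0.07, and 0.47 at the 3 times, where that of all genes was 0.00, -0.01, and -0.01. In 7, 7, and 9 of the 9 members the 3 LPS libraries did not overlap with the 3 PBS libraries, where 49.3%, 46.7%, and 70.9% of all genes did not.

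The choice of scaling matters at LPS 4 h. The TMM factors were 1.16 to 1.17 in PBS and 0.715 to 0.718 at LPS 4 h, and with library size alone the median log2 change of all genes was -0.71 there, -0.17 at LPS 30 min, and -0.03 at LPS 15 min. Under library size alone, 6 members were called at LPS 4 h, 3 higher and 3 lower. The share of all genes called was not computed for this scaling, so these counts have no background. Tfrc, Cp, Trf, and Hamp kept their call and direction, Fth1 lost its call, Ftl1 and Aco1 were called lower, and Heph and Ireb2 changed sign without a call. Ratios between members within a library do not depend on the scaling and are given below for that reason.

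**Figure D1:**
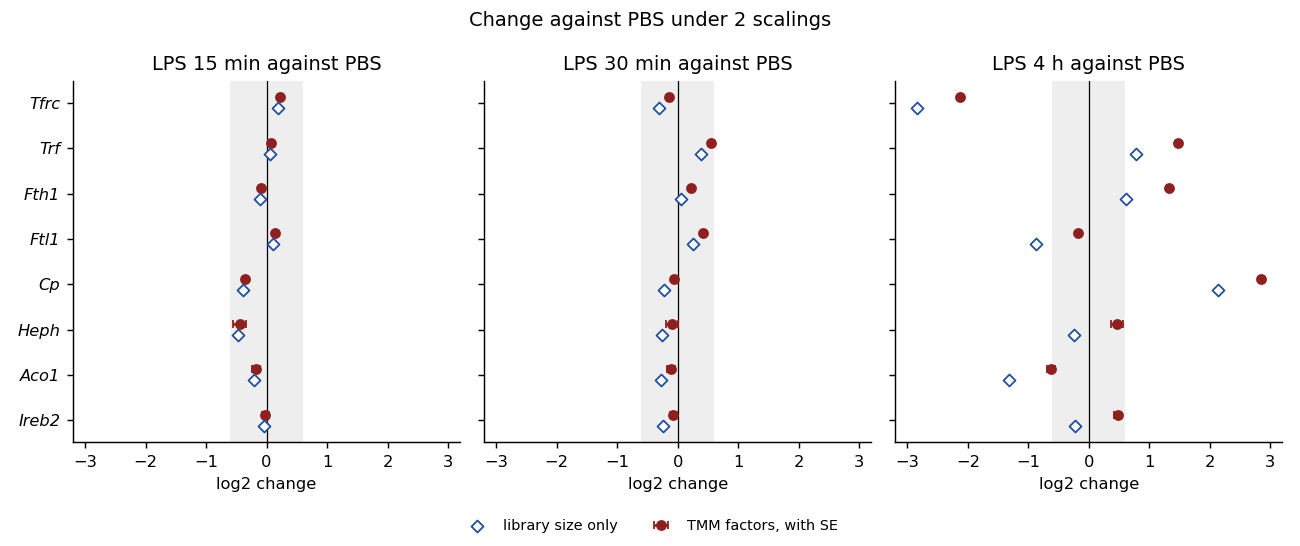
Log2 change of 8 members against PBS at each time after LPS, with TMM factors (filled circles, bars 1 SE) and with library size alone (open diamonds, no error drawn). The grey band is the 1.5-fold threshold, 0.58 on the log2 scale; Tfrc, Cp, Trf, Fth1, and, by a small margin with TMM factors, Aco1 lie outside it at LPS 4 h under both scalings, and Heph and Ireb2 lie on opposite sides of 0 under the 2 scalings. Hamp, with no fragment in PBS, is not drawn.

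In bulk RNA, fewer cells of a type and less RNA per cell cannot be told apart, and markers of several cell types moved with the groups. The 6 endothelial markers were detected in every library. Their summed level was 8679 to 8966 CPM in PBS and 5933 to 5992 CPM at LPS 4 h, when 4 of 6 were lower and 1, Cdh5, was higher. The 4 choroid plexus markers, mainly Ttr, summed to 10061 to 10476 CPM in PBS. They summed to 13346 to 13674 CPM at LPS 30 min and, with 1 of 4 called higher, to 16724 to 17592 CPM at LPS 4 h. The 6 erythroid markers, mostly globins, summed to 2318 to 2492 CPM in PBS and 6947 to 7315 at LPS 4 h, with 6 of 6 higher. The 4 tested of 5 neutrophil markers were all higher at LPS 4 h, 171 to 175 CPM summed against 4.08 to 4.89 in PBS, where Ly6g was at 0. Ly6g did not pass the filter, and Retnlg passed it through its level at LPS 4 h. Retnlg had 1 to 12 counts per library in PBS and 159 to 205 at LPS 4 h. The 3 perivascular macrophage markers were all higher, 123 to 133 CPM against 67.3 to 69.9. Of 5 astrocyte markers 2 were called higher at LPS 4 h, and the list summed to 643 to 664 CPM in PBS and 859 to 900 CPM. Of 6 oligodendrocyte markers 3 were called lower and 0 higher, while the sum, led by Mbp, went from 397 to 412 CPM in PBS to 476 to 488 CPM. The 5 microglial markers, 2 of them called lower, summed to 143 to 147 and 90.4 to 97.03 CPM. Before that, 3 of 4 smooth muscle markers were lower at LPS 15 min, 1488 to 1508 CPM summed against 2346 to 2382, and 4 of 6 erythroid markers were already higher at LPS 30 min. Scaled by library size alone, the sums at LPS 4 h were lower than in PBS for astrocytes (615 to 646 against 751 to 776 CPM) and oligodendrocytes (341 to 349 against 464 to 481 CPM), and overlapped with PBS for the choroid plexus. The part of these cell types in the results below was not tested.

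Tfrc (chromosome 16, 32608920 to 32632794) encodes the receptor that takes transferrin into the cell. It was at 293, 293, and 287 CPM in PBS and at 343, 343, and 331 CPM at LPS 15 min. It was at 268, 261, and 260 CPM at LPS 30 min and at 67.9, 71.5, and 60.2 CPM at LPS 4 h. The libraries of LPS 15 min were all above those of PBS, those of LPS 30 min all below, and at LPS 4 h the highest library was far under the lowest of any other group. The fall at LPS 4 h was 4.37-fold, a log2 change of -2.13 (SE 0.04, adjusted p 9.73e-21). The differences at LPS 15 min (0.22, SE 0.03) and LPS 30 min (-0.15, SE 0.03) did not pass the threshold of 1.5-fold, with an adjusted p of 1 each. In counts, 7526 to 8682 fragments per library in PBS became 881 to 1074 at LPS 4 h. With library size alone the change at LPS 4 h was -2.83 and with an offset for transcript length -2.37.

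Among the 7 annotated Tfrc transcripts, Tfrc-201, which codes for the receptor and holds the 4 IREs, took 54.8% ± 0.8 (SD, n = 3) of the Tfrc fragments in PBS and 69.1% ± 8.4 at LPS 4 h. The retained intron transcript Tfrc-204 took 43.2% ± 0.8 in PBS and 46.1% ± 3.1, 43.1% ± 2.8, and 30.1% ± 8.6 at the 3 LPS times. The LPS 4 h libraries ranged from 22.5% to 39.5%, all below the PBS range of 42.6% to 44.2% (exact permutation test, two-sided, p = 0.1, the smallest that 3 against 3 libraries can give). These shares are Salmon estimates, on a spread at LPS 4 h wider than in the other groups.

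Trf (chromosome 9, 103204001 to 103230444) encodes transferrin, the iron carrier of plasma, which the choroid plexus and oligodendrocytes also make in the brain. It was at 188, 185, and 188 CPM in PBS and at 190, 197, and 205 CPM at LPS 15 min. The LPS 30 min libraries were at 275, 271, and 275 CPM and those of LPS 4 h at 523, 518, and 520 CPM. In CPM no LPS library overlapped with PBS at any of the 3 times, and the level was higher at each later time. In TPM both LPS 15 min (259 to 321) and LPS 30 min (299 to 332) overlapped with PBS (269 to 302). The rise at LPS 4 h was 2.78-fold, a log2 change of 1.48 (SE 0.03, adjusted p 6.77e-20). The change of 0.55 (SE 0.03) at LPS 30 min lay just inside the 1.5-fold threshold (adjusted p 1). Between LPS 30 min and LPS 4 h Trf rose by 1.90-fold (log2 0.93, SE 0.03, adjusted p 8.01e-12). That call was lost with library size alone (0.39) and with limma on the authors' normalized gene table (0.73). With library size alone the rise against PBS was 0.77 and stayed called. In TPM the Trf mean was 285 ± 17 in PBS and 349 ± 17 at LPS 4 h, a smaller difference than in CPM. The coding transcript Trf-201 held 86.1% ± 0.9 of the Trf fragments in PBS and 87.9% ± 2.0 at LPS 4 h. Among the choroid plexus markers Ttr was at 10060 ± 215 CPM in PBS and 17033 ± 469 at LPS 4 h, and Folr1 at 83.6 ± 0.8 and 130 ± 5. Kcnj13 was at 58.4 ± 2.2 and 66.9 ± 3.5 CPM, and Otx2 at 32.6 ± 1.2 and 37.8 ± 1.0. These last were higher at LPS 30 min, Kcnj13 at 78.9 ± 1.1 and Otx2 at 50.2 ± 1.1 CPM. Among the oligodendrocyte markers Mbp went from 183 ± 4 to 264 ± 11 CPM and Mag from 13.8 ± 0.3 to 6.58 ± 0.91 CPM, and the sum of the list changed direction with the scaling, as given above.

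**Figure D2:**
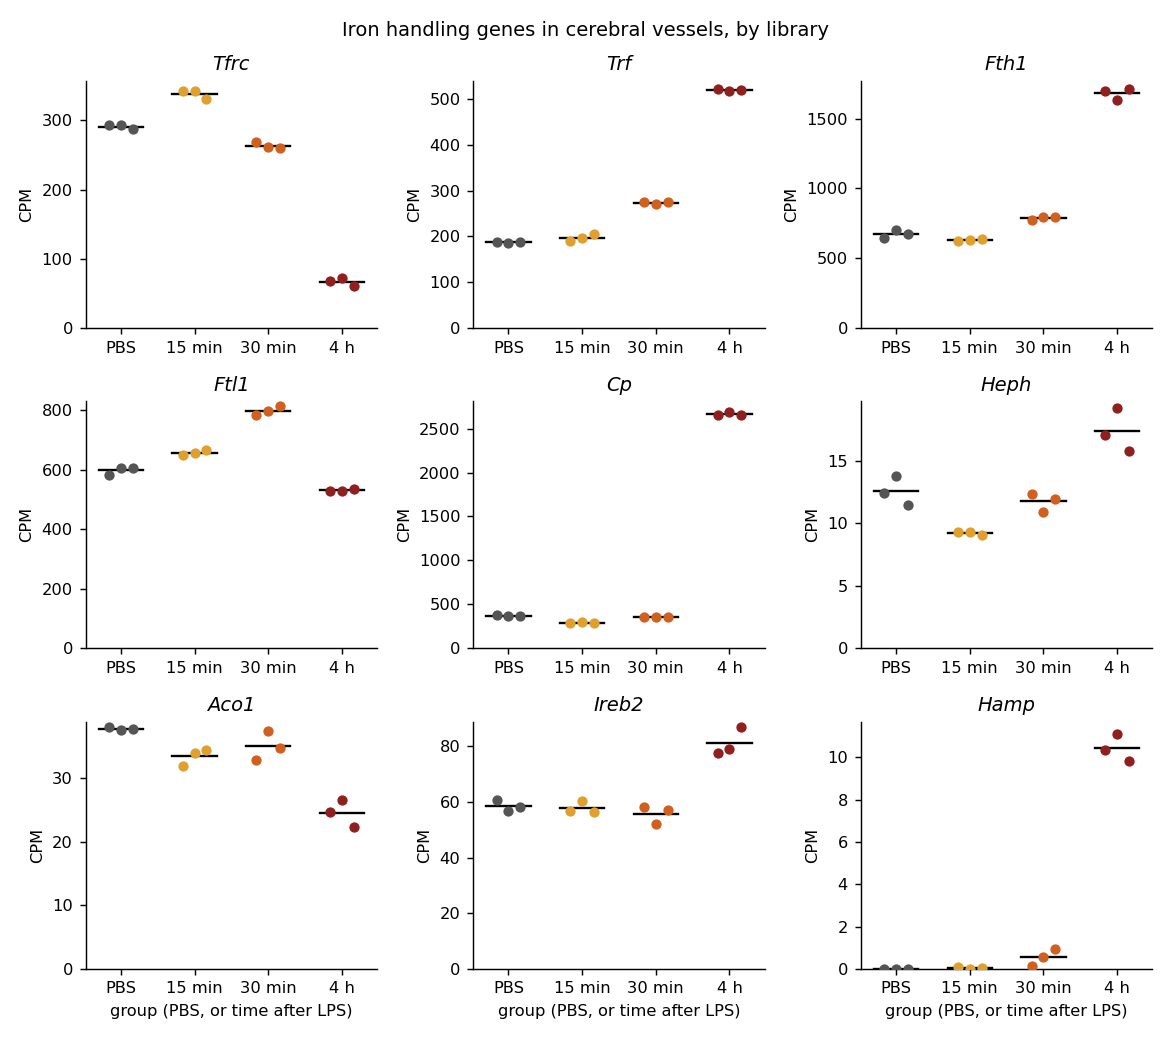
Level of the 9 members in each of the 12 libraries, in CPM with TMM scaling on axes that start at 0; points are libraries and lines the mean of 3. Trf, Fth1, Cp, and Hamp sit highest and Tfrc lowest at LPS 4 h, while Ftl1 peaks at LPS 30 min and Heph, Aco1, and Ireb2 move within narrower ranges.

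The ferritin chains form a shell in which iron is stored. The heavy chain has the ferroxidase activity and the light chain helps the mineral core to form. Fth1 (chromosome 19, 9980598 to 9985098) was at 648, 699, and 671 CPM in PBS, and at 627, 633, and 639 CPM at LPS 15 min. It was at 775, 792, and 794 CPM at LPS 30 min and at 1701, 1636, and 1716 CPM at LPS 4 h. The LPS 4 h libraries stood far above all others. The rise at LPS 4 h was 2.50-fold, a log2 change of 1.32 (SE 0.03, adjusted p 1.28e-18). With library size alone it was 0.62 and just missed the call (adjusted p 0.0507). In TPM the Fth1 mean was 1576 ± 54 in PBS and 2107 ± 47 at LPS 4 h, a smaller difference than in CPM. The direction at LPS 30 min depended on the measure. Its libraries lay above all of PBS in CPM and below all of PBS in TPM (1479 to 1513 against 1518 to 1625).

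Ftl1 (chromosome 7, 45457944 to 45459884) was at 582, 605, and 604 CPM in PBS and at 649, 657, and 666 CPM at LPS 15 min. It was at 785, 795, and 815 CPM at LPS 30 min and at 529, 529, and 534 CPM at LPS 4 h. In CPM the light chain was thus highest at LPS 30 min and lowest at LPS 4 h, with no overlap between groups. In TPM the libraries of LPS 15 min (1408 to 1439) and LPS 30 min (1392 to 1432) overlapped. Its log2 changes against PBS were 0.14, 0.42, and -0.17 (SE 0.02 each, adjusted p 1 each), none of which passed the threshold. Under library size alone the difference at LPS 4 h was -0.88 and was called. The 4 h value was also lower than at 30 min by 0.59 on the log2 scale (SE 0.02, adjusted p 0.473), a difference that was not called.

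The ratio of the ferritin chains separated the groups without any scaling between libraries. Fth1 over Ftl1, in TPM, was 1.22 ± 0.03 (SD, n = 3) in PBS and 1.04 ± 0.01, 1.06 ± 0.01, and 3.402 ± 0.077 at the 3 LPS times. At LPS 15 min and 30 min it was below every PBS library, and at LPS 4 h it was 2.79 times the PBS mean. The ranges did not overlap, from 1.199 to 1.257 in PBS and from 3.31 to 3.45 at LPS 4 h (exact permutation test, two-sided, p = 0.1 for each time, the smallest possible). Both chains carry the 5′ UTR hairpin shown above. Processed pseudogenes took almost none of these reads: 2 pseudogenes of Fth1 held 0 to 4 counts per library and 3 of Ftl1 held 2 to 28, at most 0.181% of the parent gene. Ftl1 shares 355 exonic bases with the antisense gene Gm10252, which was assigned 6 to 49 counts per library. Without strand information the reads of that stretch cannot be told apart.

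Retained intron transcripts of Fth1, which do not code for the chain, took 1.35% ± 0.04 of the Fth1 fragments in PBS and 1.68% ± 0.08, 1.83% ± 0.04, and 5.13% ± 0.21 at the 3 LPS times. Each LPS group lay above all PBS libraries (exact permutation test, two-sided, p = 0.1 for each, the smallest possible). The coding transcript Fth1-201 still held 94.8% ± 0.3 at LPS 4 h, against 98.6% ± 0.1 in PBS. Ftl1-201 held 98.8% ± 0.2 of the Ftl1 fragments in PBS and 98.3% ± 0.2 at LPS 4 h.

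**Figure D3:**
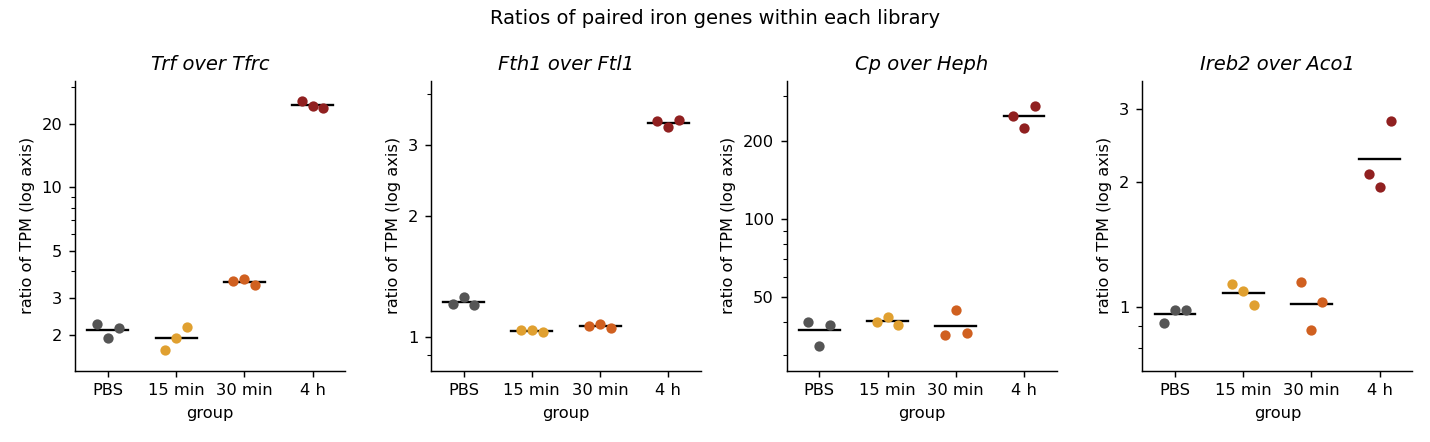
Ratios of paired members in TPM within each library, on log axes; points are libraries and lines the mean of 3. At LPS 4 h all 4 ratios lie above every library of the other groups, and the ratio of Trf to Tfrc is already 3.56 at LPS 30 min against 2.11 in PBS.

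Cp (chromosome 3, 19957054 to 20009145) encodes ceruloplasmin, a copper ferroxidase and an acute phase protein. It was at 377, 371, and 369 CPM in PBS and at 289, 296, and 286 CPM at LPS 15 min. The LPS 30 min libraries were at 358, 358, and 351 CPM and those of LPS 4 h at 2658, 2688, and 2659 CPM. In CPM all libraries of both early times lay below PBS and those of LPS 4 h far above. In the authors' normalized gene table, LPS 30 min library 2 (7969) lay within the PBS range (7414 to 8355). The rise at LPS 4 h was 7.16-fold, a log2 change of 2.84 (SE 0.02, adjusted p 5.65e-29). The lower level at LPS 15 min (-0.36, SE 0.02) did not pass the 1.5-fold threshold (adjusted p 1). Between LPS 30 min and LPS 4 h Cp rose by 7.50-fold (log2 2.91, SE 0.02, adjusted p 1.07e-28). Counts went from 9673 to 10998 fragments per library in PBS to 34485 to 40370 at LPS 4 h. With library size alone the rise against PBS was 2.14 on the log2 scale.

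Cp is made in a secreted form and in a form anchored to the cell membrane by a lipid, and the forms differ in the last exons. In the annotation, Cp-202 ends in an exon of its own at 19992509 to 19993138 with a coding tail of 4 whole codons before the stop. Cp-201 and Cp-204 share a tail of 29 whole codons from 20005467 onward. The short tail corresponds to the secreted form and the long tail to the anchored form. Transcripts with the short tail were at 124 ± 2 CPM in PBS and at 101 ± 4, 140 ± 5, and 1428 ± 17 CPM at the 3 LPS times. Those with the long tail were at 222 ± 7 CPM in PBS and then at 170 ± 5, 192 ± 3, and 838 ± 24 CPM. Both kinds were thus higher at LPS 4 h, the short tail 11.5 times and the long tail 3.78 times its PBS mean. The short tail share of the fragments of both kinds was 36.0% ± 1.1 in PBS and 37.3% ± 1.5, 42.2% ± 0.9, and 63.03% ± 0.88 at the 3 LPS times. PBS libraries ranged from 35.2% to 37.3%, and those of the last time from 62.0% to 63.6%, with LPS 30 min between them at 41.3% to 43.1%. The exact two-sided permutation test gave p = 0.2 at LPS 15 min and p = 0.1, its smallest value, at LPS 30 min and LPS 4 h. As a share of TPM it was 37.1% in PBS and 64.3% at LPS 4 h. Cp-201 shares 108 exonic bases at its end with Hps3 on the other strand, which was assigned 630 to 1666 counts. Cp-204, which shares none, was at 64.1 ± 6.4 CPM in PBS and 284 ± 17 at LPS 4 h. Retained intron transcripts took 6.53% ± 0.86 of all Cp fragments in PBS and 14.2% ± 0.5 at LPS 4 h.

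**Figure D4:**
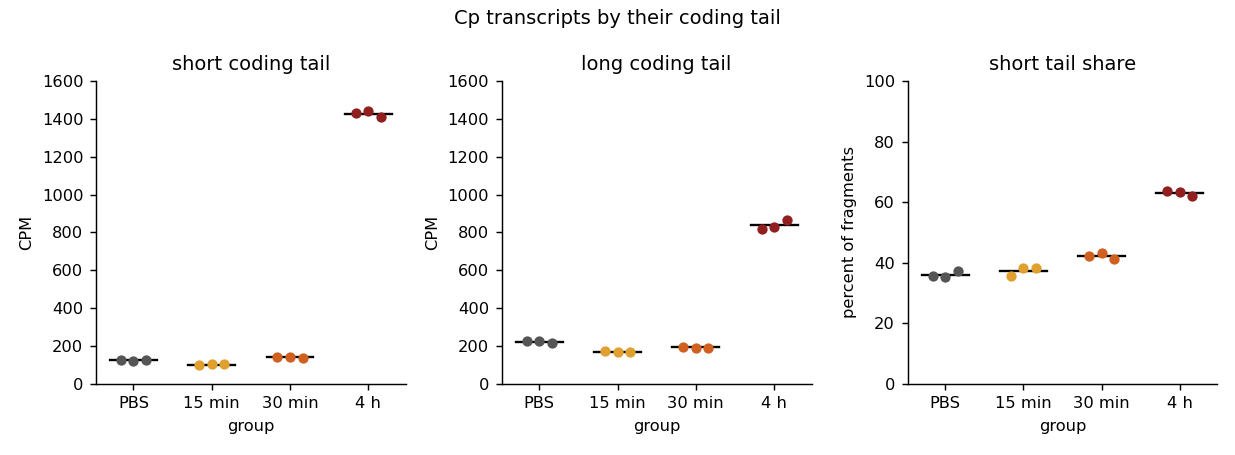
Cp transcripts with the short coding tail, with the long coding tail (both in CPM), and the share of the short tail among both in percent of fragments, for each of the 12 libraries; lines are the mean of 3. The short tail share is 35.2% to 37.3% in PBS and 62.0% to 63.6% at LPS 4 h, and the level of both kinds is highest at LPS 4 h.

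Heph (chromosome X, 96455359 to 96574485) encodes hephaestin, a membrane ferroxidase related to ceruloplasmin. It was at 12.4, 13.8, and 11.5 CPM in PBS and at 9.33, 9.30, and 9.10 CPM at LPS 15 min. It was at 12.4, 10.9, and 11.98 CPM at LPS 30 min and at 17.04, 19.2, and 15.8 CPM at LPS 4 h. LPS 15 min lay below PBS and LPS 4 h above it, while LPS 30 min overlapped with PBS. None of the differences was called: the log2 changes were -0.44, -0.10, and 0.47 (SE 0.10 each, adjusted p 1 each), and the last was -0.24 with library size alone. Counts were 219 to 409 per library. Cp over Heph in TPM was 37.3 ± 4.2 in PBS and 40.3 ± 1.4, 38.8 ± 5.0, and 250.4 ± 24.2 at the 3 LPS times. Only the last group did not overlap with PBS (exact permutation test, two-sided, p = 0.1, against p = 0.5 and p = 0.7 at the early times).

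Aco1 switches between an aconitase with an iron-sulfur cluster and an RNA-binding protein, and Ireb2 is degraded when iron is plentiful. Both are controlled mainly as proteins. Aco1 (chromosome 4, 40143081 to 40198338) was at 38.1, 37.6, and 37.8 CPM in PBS and at 31.9, 33.98, and 34.5 CPM at LPS 15 min. It was at 32.9, 37.4, and 34.8 CPM at LPS 30 min and at 24.7, 26.6, and 22.3 CPM at LPS 4 h. All LPS libraries lay below those of PBS, at LPS 30 min by a small margin. In the authors' normalized gene table, LPS 30 min library 2 (825) lay within the PBS range (817 to 955). The log2 change at LPS 4 h was -0.62 (SE 0.07, adjusted p 0.281), which was not called beyond 1.5-fold. It was called with library size alone (-1.33, adjusted p 1.29e-10).

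Ireb2 (chromosome 9, 54863789 to 54912530) was at 60.7, 56.8, and 58.2 CPM in PBS and at 56.6, 60.4, and 56.5 CPM at LPS 15 min. It was at 58.1, 52.1, and 57.0 CPM at LPS 30 min and at 77.5, 79.2, and 87.1 CPM at LPS 4 h. The early groups overlapped with PBS and LPS 4 h lay above it. The log2 change at LPS 4 h was 0.47 (SE 0.05, adjusted p 1) and was not called. Its sign was negative with library size alone (-0.23). The ratio of Ireb2 to Aco1, in TPM, was 0.963 ± 0.039 in PBS and 1.08 ± 0.06, 1.02 ± 0.14, and 2.28 ± 0.46 at the 3 LPS times. The LPS 4 h libraries were at 1.94 to 2.80 and those of PBS at 0.918 to 0.987 (exact permutation test, two-sided, p = 0.1, the smallest possible).

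Hamp (chromosome 7, 30942368 to 30944032) encodes hepcidin. No fragment was assigned to it in any PBS library, and 2, 0, and 1 were assigned at LPS 15 min. At LPS 30 min there were 3, 13, and 21 fragments and at LPS 4 h there were 134, 167, and 144. Every library of LPS 30 min held fragments, although the 3 differed widely, and the LPS 4 h libraries were close together at 10.3, 11.1, and 9.84 CPM. With PBS set to a floor of 3 counts for its 3 libraries together, Hamp was at least 14.9-fold higher at LPS 30 min (adjusted p 0.000348) and at least 287-fold higher at LPS 4 h (adjusted p 3.55e-11). At LPS 15 min the difference was not detectable at this depth (adjusted p 0.836). Against LPS 15 min it was higher at LPS 30 min by 3.66 on the log2 scale (SE 0.74, adjusted p 0.00515), from 3 fragments in all at LPS 15 min, and it was the 1 member called there, where 4.65% of all genes were. Against LPS 30 min it rose at LPS 4 h by 19.1-fold (log2 4.26, SE 0.38, adjusted p 1.48e-08). Leaving out single libraries moved these values and changed none of these calls. Without LPS 30 min library 3 the bound at LPS 30 min was 9.48-fold and the log2 differences were 3.03 from LPS 15 min and 4.89 to LPS 4 h. Without LPS 15 min library 1 the difference between the early times was 4.41. The calls at LPS 30 min depended on the method: limma with a pseudocount of 10 made neither, with a pseudocount of 1 it did not make that against LPS 15 min (adjusted p 0.0812), and a fit on only the groups compared filtered Hamp out. In the main fit Hamp passed the filter through its level at LPS 4 h, so its calls are not independent of a difference.

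The neighbouring hepcidin gene Hamp2 was assigned 0 to 4 counts per library. The antisense gene Gm44662 overlaps Hamp without sharing exonic bases and was assigned 1 to 11 counts. Hepatocyte markers, a list added after the data had been examined, were near 0 throughout: 5 genes summed to 0.382 to 0.899 CPM in PBS and 0.771 to 1.02 at LPS 4 h. Ahsg was at 0 in both groups and Alb at 0 in PBS. The promoter of Hamp, the 250 bases before its start, is shown because interleukin 6 is known to act on it through STAT3 and bone morphogenetic proteins (BMPs) through SMADs. It lies at chr7:30944030-30944279 on the minus strand (RefSeq, GRCm38.p6). Capitals mark matches to the STAT letters TTCNNNGAA and to the BMP response letters GGCGCC, both of which read the same on either strand.
Hamp promoter: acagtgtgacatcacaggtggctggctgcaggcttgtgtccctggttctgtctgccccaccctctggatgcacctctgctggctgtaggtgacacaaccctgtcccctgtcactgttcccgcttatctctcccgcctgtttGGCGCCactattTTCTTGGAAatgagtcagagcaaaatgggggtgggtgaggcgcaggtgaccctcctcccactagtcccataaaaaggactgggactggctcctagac
The STAT match TTCTTGGAA spans -97 to -89 from the start and the GGCGCC match -109 to -104. Of 32851 promoters in the table, 7.02% held TTCNNNGAA and 9.59% held GGCGCC in the same 250 bases. Promoters of 7 of the 9 members were in the table, and GGCGCC was found in 1 other, that of Tfrc, at -89 to -84.

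Per length, Fth1 had the highest level of the members in every group. In PBS the order in TPM was Fth1 (1576 ± 54), Ftl1 (1291 ± 32), Trf (285 ± 17), Cp (169 ± 13), Tfrc (136 ± 4), Aco1 (17.3 ± 1.6), Ireb2 (16.6 ± 0.9), Heph (4.58 ± 0.46), and Hamp at 0. Of the neighbours in that order, Aco1 and Ireb2 overlapped between libraries and the others did not. The order changed first at LPS 15 min, where Tfrc (151 ± 3) stood above Cp (134 ± 6). At LPS 4 h Cp (839 ± 7) had passed both Ftl1 (619 ± 1) and Trf (349 ± 17) and was second to Fth1 (2107 ± 47). Hamp (61.8 ± 4.4) stood above Tfrc (14.2 ± 0.5), which overlapped with Ireb2 (12.6 ± 1.3). Trf over Tfrc, ligand to receptor, was 2.11 ± 0.16 in PBS and 1.93 ± 0.24, 3.56 ± 0.10, and 24.6 ± 0.9 at the 3 LPS times. The last was 11.7 times the PBS mean. The exact two-sided permutation test gave p = 0.5 at LPS 15 min and p = 0.1, the smallest possible, at the later times.

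Between LPS 30 min and LPS 4 h 5 members were called, as were 28.6% of all genes, 16.9% higher and 11.8% lower. They were Cp, Fth1, Trf, and Hamp, which rose, and Tfrc, which fell by 1.98 on the log2 scale (SE 0.04, adjusted p 9.77e-20). Fth1 rose by 1.10 (SE 0.03, adjusted p 2.13e-15). Ftl1, Heph, Ireb2, and Aco1 were not called, with log2 changes of -0.59, 0.56, 0.55, and -0.51. Under library size alone Cp, Hamp, and Tfrc kept their call, Trf (0.39) and Fth1 (0.56, adjusted p 0.859) lost it, and Ftl1 (-1.13) and Aco1 (-1.05) were called lower.

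Other genes of iron metabolism were described from a list of 51, of which 46 were tested. At LPS 15 min 3 were higher and 0 lower, at LPS 30 min 6 were higher and 1 lower, and at LPS 4 h 17 were higher and 11 lower. Of all genes 4.18%, 4.58%, and 32.8% were called at these times, the last 19% higher and 13.8% lower, which is also the background of the counts by role below. Their median log2 changes were -0.11, 0.14, and 0.29. With library size alone the split at LPS 4 h was 12 higher and 19 lower. The shares of all genes given above belong to the TMM factors and are not the background of that split. The list was drawn up with earlier results of these data known.

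In the export group, Slc40a1, the only known iron exporter, was the 1 gene tested. Its libraries were at 181 to 185 CPM in PBS. They were at 123 to 129, 97.2 to 100.3, and 9.63 to 10.99 CPM at the 3 LPS times. The level was lower at each later time, with no overlap between groups. It fell at LPS 30 min by 0.89 on the log2 scale (SE 0.03, adjusted p 3.66e-08) and at LPS 4 h by 4.13 (SE 0.05, adjusted p 1.12e-25), a 17.5-fold difference. Within libraries, the ratio of Tfrc to Slc40a1 in TPM was 1.46 ± 0.05 in PBS and 2.42 ± 0.08, 2.18 ± 0.06, and 5.15 ± 0.31 at the 3 LPS times. All LPS groups lay above PBS (exact permutation test, two-sided, p = 0.1 each, the smallest possible). The receptor and the exporter were thus both lower at LPS 4 h, the former with IREs in the 3′ UTR and the latter with one in the 5′ UTR.

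Of the 8 genes of transferrin binding and endosomal uptake, 4 rose at LPS 4 h and 0 fell. Among them were Steap1 (log2 1.45) and the metalloreductase Steap2 (log2 1.22, or 0.52 and not called with library size alone). Steap4, a metalloreductase, rose from 6.06 to 550 CPM (log2 6.51, SE 0.06, adjusted p 6.06e-29). Slc11a2, the divalent metal transporter that moves iron out of endosomes, rose by 3.97-fold (log2 1.99, SE 0.06). Steap3, the endosomal ferrireductase of red cell precursors, was not called (0.03, SE 0.08), and its sign was negative with library size alone (-0.68). In the group of other uptake routes, Slc39a14, a carrier of iron not bound to transferrin, rose by 6.63-fold (log2 2.73, SE 0.07, adjusted p 2.24e-19), and the related Slc39a8 fell by 0.70 (SE 0.05, adjusted p 0.0156). The latter was not called with DESeq2 (adjusted p 0.214) or without LPS 4 h library 3 (adjusted p 0.0896).

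Of the 10 genes that control hepcidin, 8 were tested, and 2 rose and 5 fell at LPS 4 h. Il6, the cytokine that induces hepcidin, had no fragment in PBS or at LPS 15 min and was at 0.524 CPM at LPS 30 min and 548 CPM at LPS 4 h. That is at least 14.4-fold and at least 15068-fold higher than PBS. Like Hamp, Il6 passed the filter on low counts through its level at LPS 4 h, so its calls are not independent of a difference. Bmp2 rose by 4.08-fold (log2 2.03, SE 0.10), whereas Bmp6, the BMP that endothelial cells of the liver release in response to iron, was not called (-0.51, SE 0.05), except as lower with library size alone (-1.21, adjusted p 5.22e-12). The BMP target genes fell: Smad6 by 1.64, Smad7 by 1.56, Atoh8 by 1.05, and Id1 by 0.74 on the log2 scale. Id1 had risen at both early times, from 370 CPM in PBS to 723 at LPS 15 min and 726 at LPS 30 min (log2 0.97, SE 0.03, for each). Hjv, the BMP co-receptor hemojuvelin, fell by 1.69 (SE 0.35, adjusted p 0.00227) from a low level of 2.13 CPM.

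In storage and the control of IRPs, Ncoa4, the receptor that takes ferritin to the lysosome, fell by 0.95 on the log2 scale (SE 0.04, adjusted p 9.81e-09). Fbxl5, the ligase subunit that marks Ireb2 for degradation, rose by 2.01-fold (log2 1.01, SE 0.05, adjusted p 4.08e-09), a call lost with library size alone (0.30). Of 13 genes of haem metabolism 5 rose and 3 fell. Those described below apart, Blvrb and Slc48a1 fell by 0.86 and 0.83 on the log2 scale, and Hpx, haemopexin, rose by 1.11 from 1.10 CPM (SE 0.30, adjusted p 0.0382). The call of Hpx was lost with library size alone, no filter, a transcript length offset, DESeq2, and limma, and without any 1 of the PBS libraries or LPS 4 h library 1 or 3 (adjusted p 0.0528 to 0.11). Hp, haptoglobin, which binds free haemoglobin, rose from 0.898 to 116 CPM (log2 7.01, SE 0.10). Hmox1, the inducible haem oxygenase, rose by 6.36-fold (log2 2.67, SE 0.08, adjusted p 4.62e-17). The haem exporter Flvcr1 rose by 1.83 (SE 0.06), and its relative Flvcr2 fell by 1.93 (SE 0.07). Alas1, the first enzyme of haem synthesis, was called at all 3 times, at 0.743, 1.246, and 0.919 on the log2 scale (SE 0.03 each), the last not with library size alone (0.22).

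Of the 3 genes that sequester iron from microbes or carry siderophores, 2 rose at LPS 4 h. Lcn2, lipocalin 2, which binds bacterial siderophores, was at 5.84 to 6.56 CPM in PBS. It was at 18.9 to 27.4, 400.4 to 413.7, and 10238 to 10384 CPM at the 3 LPS times. It was called at all 3 times (log2 1.90, 6.03, and 10.70). Ltf, lactoferrin, which neutrophils carry, rose from 0.652 to 20.5 CPM at LPS 4 h (log2 4.96, SE 0.26), beside the neutrophil markers given above. Of the 6 genes of mitochondrial iron 2 rose, both of them carriers of the inner membrane, Slc25a28 (log2 1.45, SE 0.04) and Slc25a37 (0.68, SE 0.06, adjusted p 0.0378). The call of Slc25a37 was lost without PBS library 1 or 3, LPS 15 min library 1, or LPS 4 h library 2 (adjusted p 0.0509 to 0.189). It was also lost with no filter, a transcript length offset, only the groups compared, DESeq2, and both limma settings (adjusted p 0.133 to 0.635), and the sign was negative with library size alone (-0.02). At LPS 30 min, beside Slc40a1, the called genes were Lcn2, Il6, Hp, Alas1, Id1, and Flvcr1 (0.77, SE 0.06, adjusted p 0.011). The call of Flvcr1 was lost with library size alone (0.60), DESeq2, both limma settings (adjusted p 0.0734 and 0.108), and without PBS library 3 (adjusted p 0.0543). Those of Hp and Il6 were lost with limma and a pseudocount of 10.

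**Figure D5:**
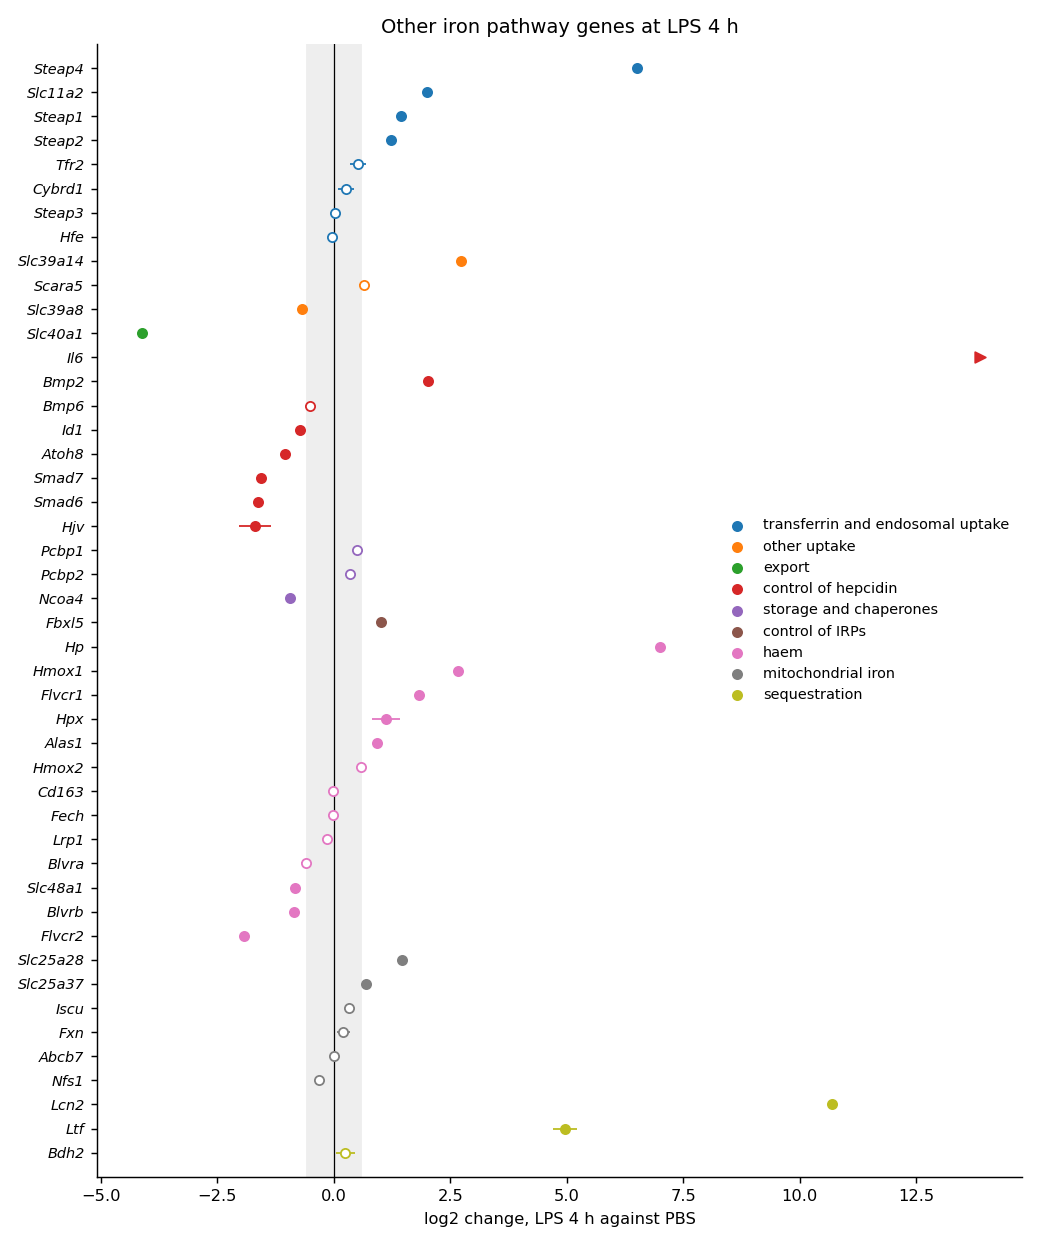
Log2 change at LPS 4 h against PBS of the 46 tested iron pathway genes other than the members, coloured by role, with bars of 1 SE; filled points were called, open points were not, and the grey band is 1.5-fold. The arrowhead for Il6 stands at its lower bound of 15068-fold, Lcn2 lies at 10.70, and Slc40a1 lies farthest to the left at -4.13.

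The genes most alike in pattern were sought for the 3 members with the largest change at LPS 4 h, by Pearson correlation of log2(CPM + 1) over the 12 libraries among 10893 genes. For Tfrc they were Fam13c (r = 0.998), Itm2a (r = 0.997), and Cxcl12 (r = 0.997). For Cp they were Stra6, Msn, and Plscr1 (r = 0.9997, 0.9996, and 0.9995). For Hamp they were 4833403J16Rik, Fcgr3, and Ccl3 (r = 0.997 each). The 12 libraries fall into 4 groups, so these correlations are set by the group means and carry no p.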

How the data were processed

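The authors ran Salmon 1.2.1 on paired-end reads against GRCm38.p6 and deposited, per transcript, estimated counts (not normalized) and TPM (divided by transcript length and scaled to the same total in every library). They also deposited a gene table, a normalized signal divided by DESeq2 size factors and transcript length factors. Its columns were assigned to samples by the numbers in the file names. Estimated counts were summed to GENCODE M21 genes and rounded: 139852 of 140948 transcripts joined, and the rest held 0.482% to 0.85% of fragments.

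All 12 libraries entered 1 quasi-likelihood fit in edgeR 4.0.16 (R 4.3.3, TMM factors, filterByExpr with a minimum count of 10, total of 15, and share of 0.7). glmTreat tested each gene beyond 1.5-fold, adjusted over 19150 genes. The SE is the log2 change divided by the root of the F statistic. A group at 0 was set to 3 counts in all for a fold, which covers counting error only. Ratios and shares were compared with exact permutation tests over libraries. Each library is a pool of animals, so p-values measure the spread between pools, and the sources do not say whether pools of a group were prepared together. Libraries with the same number did not deviate together (correlations of -0.067 to 0.051 in 18 pairs), and within-group variance was 1.54 to 1.84 times counting variance. The test was tried on simulated data.

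Members, lists, and the naming rule were chosen with earlier results of these data known: all members; up to 6 pathway rises and 6 falls per comparison with PBS, and 10 pathway genes always; the 3 most alike genes, with a mean of at least 10 CPM. Slc39a8, Slc25a28, Slc25a37, Bmp2, Steap1, Steap2, Blvrb, Slc48a1, and Hpx, named beyond that rule, and the hepatocyte list were chosen after values were seen. A further gene of the pathway list is not reported here. Alternatives were RLE factors, library size alone, no filter, no fold threshold, a transcript length offset, only the groups compared, a replicate block, added ferritin pseudogenes, DESeq2 1.42.0, limma 3.58.1 on log2 of the gene table plus 1 or 10, and leaving out each of 12 libraries.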

Additional observations from a re-analysis of the deposited data

Results flagged for a closer look

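For 5 members the effect of LPS differed between times by a test of the difference itself, the threshold test between the LPS groups, which share the PBS group as their common reference. Between LPS 30 min and LPS 15 min this was Hamp, with a log2 difference of 3.66 that rests on 3 fragments at LPS 15 min. Between LPS 4 h and LPS 30 min the log2 differences were -1.98 for Tfrc, 0.93 for Trf, 1.10 for Fth1, 2.91 for Cp, and 4.26 for Hamp. In each of these the 3 libraries of one time did not overlap with the 3 of the other. That was common: between LPS 4 h and LPS 30 min it held for 9 of 9 members and 42 of 46 pathway genes. Between LPS 30 min and LPS 15 min it held for 7 of 9 members and 33 of 46 pathway genes. The share of all genes was not computed for these 2 comparisons. Groups of 3 libraries were too small for a test of single outlying libraries.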

How the results depend on the processing

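The counts of called members at LPS 4 h (5, and 5 against LPS 30 min) and of other iron genes (28, and 24) stayed within 1.5 times under RLE factors, library size alone, no filter, a transcript length offset, only the groups compared, added ferritin pseudogenes, DESeq2, and limma. With the replicate block the counts of members were 0, 1, and 5 against PBS and 1 and 5 between LPS times, the same as without it, and those of pathway genes were 3, 7, 28, 5, and 24. The library numbers did not pair the samples. With no fold threshold, members called were 7, 6, and 9 against PBS and 7 and 9 between LPS times, and pathway genes 28, 24, 26, and 38 in the comparisons other than LPS 4 h against PBS. Of all genes 38.6%, 36.9%, and 68.5% passed against PBS. The shares between LPS times were not computed, so those counts have no background. At LPS 30 min the 1 call, Hamp, was 0 with only the groups compared, both against PBS and against LPS 15 min, since the filter dropped Hamp, and 0 with limma plus 10. Limma plus 1 made 0 calls against LPS 15 min. Limma plus 10 called 4 pathway genes at LPS 30 min against PBS and 3 against LPS 15 min, and the cause was not tested. Leaving out each library gave 0 to 0, 1 to 1, and 5 to 5 members against PBS, 1 to 1 and 5 to 5 between times, and 3 to 3, 7 to 7, 26 to 29, 4 to 6, and 24 to 26 pathway genes. Signs changed with library size alone for Heph (-0.238), Ireb2 (-0.230), Steap3 (-0.678), and Slc25a37 (-0.0197) at LPS 4 h and for Aco1 (-0.0730) between LPS 30 min and LPS 15 min; of these only Slc25a37 had been called. Steap3 was also negative with no filter (-0.0244) and with only the groups compared (-0.00892). Leaving out libraries, Steap3 ranged from -0.0364 to 0.0990 at LPS 4 h and Ireb2 from -0.0492 to 0.00876 at LPS 15 min. Depth limits Hamp and Il6, with at most 21 and 16 fragments per library before LPS 4 h.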
